A study of Mus musculus with 18 samples.

Results

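The Hox cluster genes are the mouse genes whose symbol is Hoxa, Hoxb, Hoxc or Hoxd followed by a number, and 39 of the 47937 gene IDs of the count table met that rule. HoxA holds 11 of them on chromosome 6, HoxB 10 on chromosome 11, HoxC 9 on chromosome 15 and HoxD 9 on chromosome 2. A filter on low counts kept 19 of the 39 for testing, namely 9 of HoxA, 5 of HoxB, 1 of HoxC and 4 of HoxD. The other 20 members, at or near 0 counts, are described by their counts and entered no test.

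Hox genes encode homeodomain transcription factors that tell cells where along the head-to-tail axis and along a limb they lie. Within a cluster, genes with low paralogue numbers act towards the head and genes with high numbers towards the tail and the limb tip, and the genes are switched on in that order in the embryo. Fibroblasts keep a stable pattern of active and silent Hox genes that records their site of origin. Polycomb complexes hold the silent genes in repressive chromatin, and Trithorax-group complexes keep the active ones on.

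RNA came from mouse embryonic fibroblast lines in which doxycycline switched on dCas9, a Cas9 that binds DNA without cutting it, and the study asked how altered transcription of the MSR repeats it was aimed at affects repeats elsewhere. The lines carried dCas9-VPR (a transcriptional activator, VPR being a composite of activation domains), dCas9-KM (a transcriptional repressor) or the dCas9-control. The activator line was induced with 10 ng/ml doxycycline for 6 h, the repressor line with 100 ng/ml for 24 h and the control line with 10 ng/ml for 24 h. Each line also had uninduced, untreated cells, and each of the 6 groups had 3 libraries, which made 18 libraries of total RNA. All groups, uninduced ones included, carried an inducible dCas9 construct and grew in hygromycin. Whether each line was 1 clone or a pool is not given in the sources used here. No label says whether the 3 libraries of a group came from separate cultures; each p-value therefore reflects library-to-library spread, and that spread may be technical. The libraries held between 14928765 and 25262912 counts.

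Promoters are shown for the HoxA members whose levels marked the ends of the responses described below. Hoxa2 and Hoxa3 fell most when the activator was induced, Hoxa7 was the member that rose, and Hoxa11 had no count in any library. Each run is the RefSeq promoter of GRCm38.p6, 250 bases before to 50 after the transcript start, read 5′ to 3′ on the minus strand of chromosome 6. The Hoxa3 window is that of a long transcript whose start lies between those of Hoxa6 and Hoxa7. Capitals mark CG dinucleotides, the sites of CpG methylation that are dense in promoters bound by Polycomb complexes.
Hoxa2, chr6:52164782-52165081: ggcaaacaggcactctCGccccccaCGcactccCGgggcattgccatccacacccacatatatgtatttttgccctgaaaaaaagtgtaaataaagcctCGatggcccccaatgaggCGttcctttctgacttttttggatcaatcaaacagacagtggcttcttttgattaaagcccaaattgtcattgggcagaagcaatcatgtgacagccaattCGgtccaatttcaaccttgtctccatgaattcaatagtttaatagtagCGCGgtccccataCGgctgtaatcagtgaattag
Hoxa3, chr6:52213018-52213317: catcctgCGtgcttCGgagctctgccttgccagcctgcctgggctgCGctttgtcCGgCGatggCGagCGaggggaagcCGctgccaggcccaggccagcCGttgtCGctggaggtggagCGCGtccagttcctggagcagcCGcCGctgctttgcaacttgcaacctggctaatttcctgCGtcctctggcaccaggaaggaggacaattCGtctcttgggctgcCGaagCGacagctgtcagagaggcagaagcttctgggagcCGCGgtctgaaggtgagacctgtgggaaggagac
Hoxa7, chr6:52218524-52218823: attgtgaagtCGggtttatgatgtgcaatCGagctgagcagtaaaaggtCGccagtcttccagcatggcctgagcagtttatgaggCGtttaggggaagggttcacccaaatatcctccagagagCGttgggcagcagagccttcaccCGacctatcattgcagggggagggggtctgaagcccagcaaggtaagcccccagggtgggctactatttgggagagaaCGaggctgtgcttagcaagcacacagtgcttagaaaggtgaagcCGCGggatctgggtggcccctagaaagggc
Hoxa11, chr6:52245761-52246060: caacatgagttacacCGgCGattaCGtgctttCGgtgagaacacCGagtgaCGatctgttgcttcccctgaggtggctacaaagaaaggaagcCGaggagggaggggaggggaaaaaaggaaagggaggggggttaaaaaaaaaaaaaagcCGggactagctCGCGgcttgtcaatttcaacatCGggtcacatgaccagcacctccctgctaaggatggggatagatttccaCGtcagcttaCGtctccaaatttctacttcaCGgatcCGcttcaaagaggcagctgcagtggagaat
The table of promoters held 24 promoters for 22 of the 39 members. They carried a median of 14.5 CG dinucleotides (4 to 45), against a median of 7 over all 32851 promoters of that length. Hoxa3 had 20, Hoxa11 15 and Hoxa2 and Hoxa7 9 each. Both strands were searched for TGATTNAT, a site bound by Pbx and Hox proteins together, and for TGACAG, the core of Meis sites. TGATTNAT stood in 2 of the 24 Hox promoters (8.33%) and in 3.22% of all promoters. TGACAG also stood in 2 of the 24 (8.33%), against 19.2% of all promoters. With only 2 promoters behind each share, a difference from all promoters cannot be read from them. The Hoxa2 promoter held 1 of each and the Hoxa3 promoter 1 TGACAG, while the Hoxa7 and Hoxa11 promoters held neither within this window.

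Before induction the fibroblasts expressed Hox genes from all 4 clusters, with silent members among active ones. Levels between genes are given as transcripts per 1e6 transcripts (TPM), from counts per kilobase of annotated exons, over the 9 uninduced libraries of the 3 lines, and 17 members averaged at least 1 TPM. Among them were, in HoxA, Hoxa2 to Hoxa7 and Hoxa10, in HoxB Hoxb2, Hoxb3, Hoxb4, Hoxb8 and Hoxb9, in HoxC Hoxc13, and in HoxD Hoxd4, Hoxd8 and Hoxd9. The summed level was 55.1 TPM for HoxA, 65.0 TPM for HoxB, 14.5 TPM for HoxC and 41.6 TPM for HoxD.

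Hoxd8, which helps pattern the trunk, had the highest level of the 39, with a mean of 28.3 ± 1.28 TPM (SD, n = 9). Its lowest uninduced library, 25.9 TPM, lay above the highest library of every other member. Hoxb9, a gene of thoracic rib identity, averaged 16.9 ± 2.46 TPM, and Hoxb4, known for its effect on blood stem cells, averaged 16.5 ± 1.11 TPM. Hoxb2 at 15.3 ± 1.61 TPM and Hoxb3 at 14.2 ± 1.27 TPM, both genes of hindbrain segments, followed within the spread of their neighbours in that order. Hoxc13, the HoxC gene needed for hair and nails, averaged 14.0 ± 1.38 TPM. In HoxA, Hoxa5, a gene of lung and neck vertebra development, averaged 12.9 ± 1.35 TPM and Hoxa6 averaged 10.6 ± 1.8 TPM. Hoxd9 averaged 8.27 ± 0.75 TPM and Hoxd4, a gene of neck vertebrae, 4.31 ± 0.439 TPM.

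The silent members lay in blocks and in gaps. In HoxC the 8 genes from Hoxc4 to Hoxc12 were at most 0.335 TPM on average, the level of Hoxc9, next to Hoxc13 at 14.0 TPM. In HoxB the gap ran from Hoxb5 to Hoxb7, at 0.296, 0.454 and 0.0383 TPM, between Hoxb4 and Hoxb8. Of the group 13 genes other than Hoxc13, Hoxa13 and Hoxb13 had no count in the 9 uninduced libraries, and Hoxd13 averaged 0.013 TPM. Hoxa11 and Hoxd12 had no count in any of the 18 libraries. Hotair and Hottip, noncoding RNAs of the 5′ ends of HoxC and HoxA, had no count either.

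**Figure D1:**
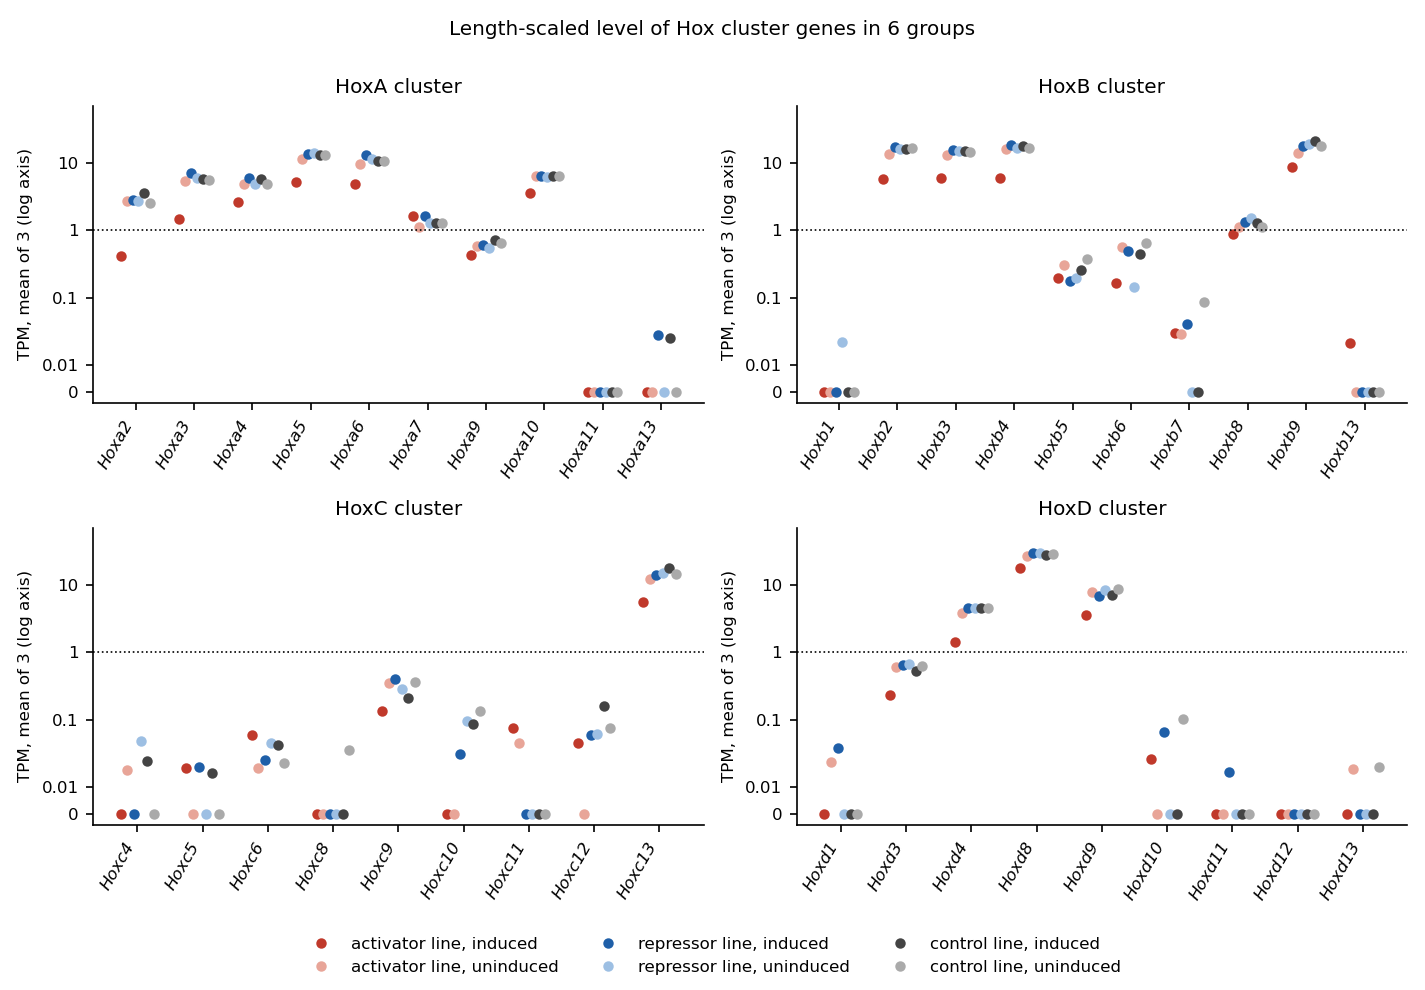
Mean TPM of Hox genes (log axis, with 0 drawn at the bottom) in order of paralogue number in each cluster, with points for the induced and uninduced activator, repressor and control lines (3 libraries each) and a dotted line at 1 TPM. TPM is scaled to the library total, so changes in the text are taken from normalised CPM; most active members have their lowest point in the induced activator line, and the HoxC genes other than Hoxc13 stay below 1 TPM in every group.

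Most of the active Hox genes were lower after 6 h of the activator. Of the 19 tested members, 16 fell, 1 rose (Hoxa7) and 2 (Hoxa9 and Hoxb8) were not called, at an adjusted p below 0.05 (edgeR's quasi-likelihood test, Benjamini-Hochberg over the 16216 genes tested). Of the falls 5 reached 2-fold, which 11.9% of all genes did downwards, and no member rose by 2-fold, which 9.58% of all genes did. The activator changed much of the transcriptome: 75.3% of all tested genes were called, 37.2% lower and 38.2% higher. The median log2 fold change of the 19 members was -0.74, against 0.004 over all genes tested. All 3 induced libraries lay below all 3 uninduced ones for 15 members and above them for 1, and the shares over all genes were 37.8% and 38.5%. In RNA from whole cultures, fewer cells of a type and less RNA per cell cannot be told apart.

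Summed over the 39 members, the induced activator libraries held 81.5, 80.7 and 85.6 CPM (counts per 1e6 counts on TMM-normalised library sizes), against 125, 126 and 134 CPM in the uninduced ones. The induced sum was 0.645 of the uninduced sum, with no overlap between the groups. By cluster the same ratio was 0.614 for HoxA, 0.606 for HoxB, 0.604 for HoxC and 0.762 for HoxD. In the repressor and control lines the ratio for all 39 members was 1.01 in each.

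The deepest falls were those of Hoxa2 and Hoxa3, among the low paralogue numbers of HoxA. Hoxa2, which specifies the skeleton of the hyoid arch, had 0.11, 0.2 and 0.511 CPM in the induced activator libraries, against 1.27, 1.28 and 1.64 CPM in the uninduced ones. The groups did not overlap, and 15 counts stood behind the induced values, against 91 behind the uninduced ones. Its log2 fold change was -2.24 (SE 0.36, adjusted p = 4.95e-08 by edgeR), a 4.73-fold lower level, and it ranged from -3.13 without induced replicate 3 to -1.85 without induced replicate 1. Hoxa3, a gene of thymus and parathyroid formation, had 3.58, 2.74 and 3.68 CPM in the induced activator libraries, against 9.12, 8.89 and 9.84 CPM in the uninduced ones. Its change of -1.45 (SE 0.12, adjusted p = 2.51e-19 by edgeR) was the one with the lowest adjusted p among the members. Other genes on the opposite strand overlap 25.4% of the exon length of Hoxa3, so some of its reads may be shared.

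Hoxb4 fell to 5.72, 5.67 and 5.88 CPM in the induced activator libraries, against 12.7, 11.8 and 11.7 CPM in the uninduced ones. The induced values were tight and lay far below the others, with a log2 fold change of -1.07 (SE 0.1, adjusted p = 1.91e-16 by edgeR). Its neighbours moved the same way: Hoxb2 averaged 7.6 ± 1.88 CPM in induced and 13.7 ± 0.68 CPM in uninduced libraries (log2 fold change -0.82), and Hoxb3 averaged 9.34 ± 1.09 CPM in induced and 15.8 ± 1.93 CPM in uninduced libraries (-0.74). Beyond the silent gap from Hoxb5 to Hoxb7, the change of Hoxb9 was smaller. Hoxb9 had 8.2, 8.67 and 8.49 CPM in induced libraries, against 9.28, 11.5 and 10.5 CPM in uninduced ones, a log2 fold change of -0.3. Hoxb9 lost its call without uninduced replicate 2, at -0.21 and an adjusted p of 0.0782 by edgeR, and with upper-quartile factors, at -0.19 and 0.0667.

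In HoxD, Hoxd4 had 1.6, 1.53 and 1.64 CPM in the induced activator libraries, against 2.95, 3.14 and 3.71 CPM in the uninduced ones (log2 fold change -1.01, SE 0.18, adjusted p = 5.33e-07 by edgeR). Hoxd3, next to it, was low, with 0.44, 0.4 and 0.256 CPM in induced and 0.613, 0.827 and 0.79 CPM in uninduced libraries. Its change of -1.02 was as large as that of Hoxd4 but less certain, and the call was lost without induced replicate 3 (-0.79, adjusted p = 0.0936 by edgeR) or uninduced replicate 2 (-0.91, adjusted p = 0.0561). Hoxd8, the most abundant member, had 18.3, 19.8 and 16.6 CPM in induced libraries, against 20.9, 21 and 22.5 CPM in uninduced ones. The groups were separate, but the change of -0.24 (SE 0.07, adjusted p = 0.000931 by edgeR) was the smallest of the 16 falls. With upper-quartile factors it was -0.13 and not called (adjusted p = 0.062 by edgeR). Hoxd9 had 2.59, 3.07 and 2.86 CPM in induced libraries, against 4.75, 4.39 and 5.1 CPM in uninduced ones, a change of -0.74.

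Hoxc13, the lone active HoxC gene, had 4.84, 5.14 and 5.47 CPM in the induced activator libraries, against 8.74, 8.69 and 8.63 CPM in the uninduced ones. It fell by 0.75 on the log2 scale (SE 0.11, adjusted p = 1.27e-09 by edgeR). Hoxa5 fell by the same amount, to 3.19, 3.6 and 4.14 CPM in induced libraries, against 5.87, 6.0 and 6.87 CPM in uninduced ones. Neither gene's groups overlapped. Other falls in HoxA were those of Hoxa6 (-0.65), Hoxa4 (-0.51) and Hoxa10 (-0.45). Hoxa6 had 2.09, 1.2 and 1.48 CPM in induced and 2.45, 3.06 and 1.88 CPM in uninduced libraries, and it was the called member whose groups overlapped. Its call was lost without uninduced replicate 2 (-0.47, adjusted p = 0.0629 by edgeR), and that of Hoxa4 without induced replicate 1 (-0.42, adjusted p = 0.0892) or uninduced replicate 1 (-0.36, adjusted p = 0.153). Hoxa4 was not called with upper-quartile factors (-0.41, adjusted p = 0.0641 by edgeR) or DESeq2 (-0.46, adjusted p = 0.0765) either.

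Hoxa7, a gene of thoracic vertebra identity, rose while the active genes on both sides of it fell or were not called. It had 1.6, 2.0 and 1.74 CPM in the induced activator libraries, against 1.07, 0.786 and 0.912 CPM in the uninduced ones. The groups did not overlap, and the log2 fold change was 0.92 (SE 0.24, adjusted p = 0.000421 by edgeR). The exons of Hoxa7 are overlapped over 20.4% of their length by the antisense RNA Hoxaas3, which rose too, and the strand setting of the authors' counting is not given, so reads of the pair cannot be told apart. The next gene, Hoxa9, a regulator of blood progenitors, had 1.49, 0.534 and 0.716 CPM in induced libraries, against 0.958, 0.91 and 0.972 CPM in uninduced ones. One induced library lay above and the others below the uninduced range, and the interval of the log2 fold change ran from -0.69 to 0.64. Hoxb8 averaged 0.862 ± 0.143 CPM in induced and 0.853 ± 0.213 CPM in uninduced libraries, with an interval from -0.7 to 0.61.

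**Figure D2:**
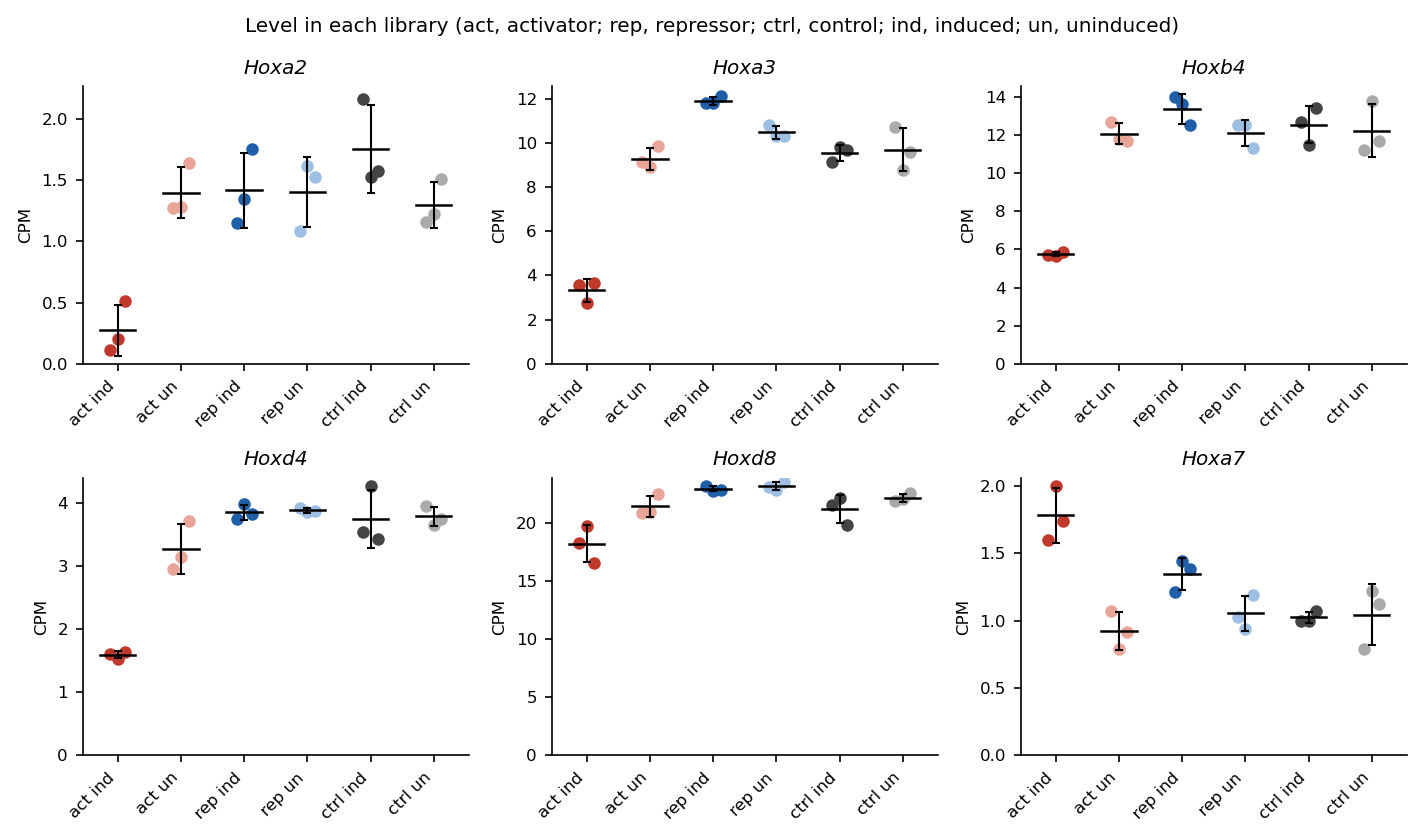
CPM of 6 Hox genes in each library (points), with the mean and SD of 3 libraries (black lines), for the induced and uninduced activator, repressor and control lines. Hoxa2, Hoxa3, Hoxb4 and Hoxd4 are lower in the 3 induced activator libraries than in all other libraries, Hoxd8 is slightly lower, and Hoxa7 is higher.

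By paralogue number, all 9 tested members of groups 1 to 4 fell, with a median log2 fold change of -1.01. Of the 5 tested members of groups 5 to 8, 3 fell, 1 rose and 1 was not called (median -0.24). Of the 5 of groups 9 to 13, 4 fell and 1 was not called (median -0.45). Across the 19 members, the log2 fold change and the paralogue number had Pearson's r of 0.47 and Spearman's rho of 0.55, as a description of genes that share clusters, libraries and exons. With the mean TPM over 18 libraries the values were 0.01 and -0.06.

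**Figure D3:**
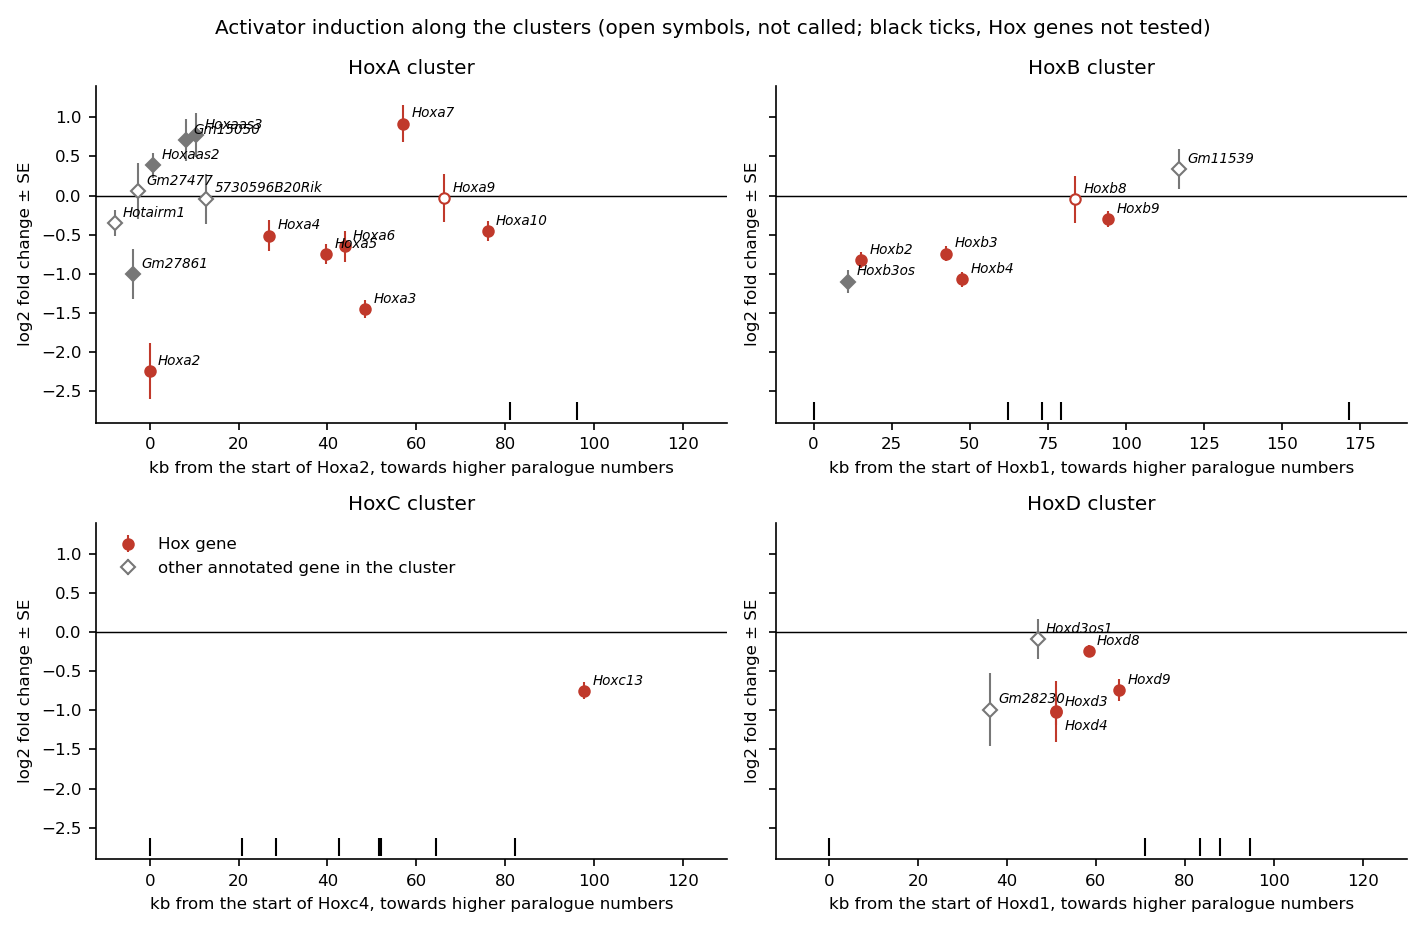
Log2 fold change in the activator line, induced over uninduced (± SE), against distance in kb from the annotated start of the lowest-numbered gene shown in each cluster, towards higher paralogue numbers, for Hox genes (circles) and other annotated genes inside the clusters (diamonds). The falls of -2.24 and -1.45 belong to Hoxa2 and Hoxa3, and Hoxa7 stands at 0.92 with Hoxa9 near 0 beside it.

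The activator's direction was read on TMM-normalised counts, and other scalings moved all genes together. The median over all genes was 0.108 with upper-quartile factors, -0.219 with total counts and -0.739 when libraries were scaled to mitochondrially encoded genes. Of all called genes, 50.7% were higher under TMM, 32.8% with total counts and 9.8% with mitochondrial scaling. All 16 falls kept their sign, Hoxa7 stayed positive but was not called with mitochondrial scaling (0.18), and Hoxa9 and Hoxb8 changed sign between scalings.

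Induction of the other lines left the Hox genes without a call. In the repressor line no tested member was called by edgeR (2 at an unadjusted p below 0.05, lowest adjusted p 0.105), where 9.81% of all genes were (4.59% lower and 5.21% higher). In the control line none was called either (3 at an unadjusted p below 0.05, lowest adjusted p 0.285), where 0.463% of all genes were (0.21% lower and 0.253% higher). DESeq2 and limma-voom also called none in each line. Hoxd9 had the lowest p in the repressor line, with 4.65, 4.03 and 3.82 CPM in induced and 5.0, 5.28 and 5.32 CPM in uninduced libraries, a log2 fold change of -0.33 (interval -0.61 to -0.04, adjusted p = 0.105 by edgeR). In the control line Hoxd9 changed by -0.32 (interval -0.6 to -0.05, adjusted p = 0.286 by edgeR) and Hoxc13 by 0.22 (interval 0.04 to 0.4, adjusted p = 0.285). Hoxa3, which fell with the activator, had 11.8, 11.8 and 12.1 CPM in induced and 10.8, 10.3 and 10.3 CPM in uninduced repressor libraries. The induced libraries lay above the uninduced ones, as for 13.4% of all genes, and the change of 0.18 had an adjusted p of 0.21 by edgeR. Those of Hoxd9 lay below, as for 13.3% of all genes in the repressor line and 7.3% in the control line. Over the 19 members the intervals reached from -0.84 to 0.91 in the repressor line and from -0.98 to 0.94 in the control line, so for the low members a change of nearly 2-fold was not excluded.

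**Figure D4:**
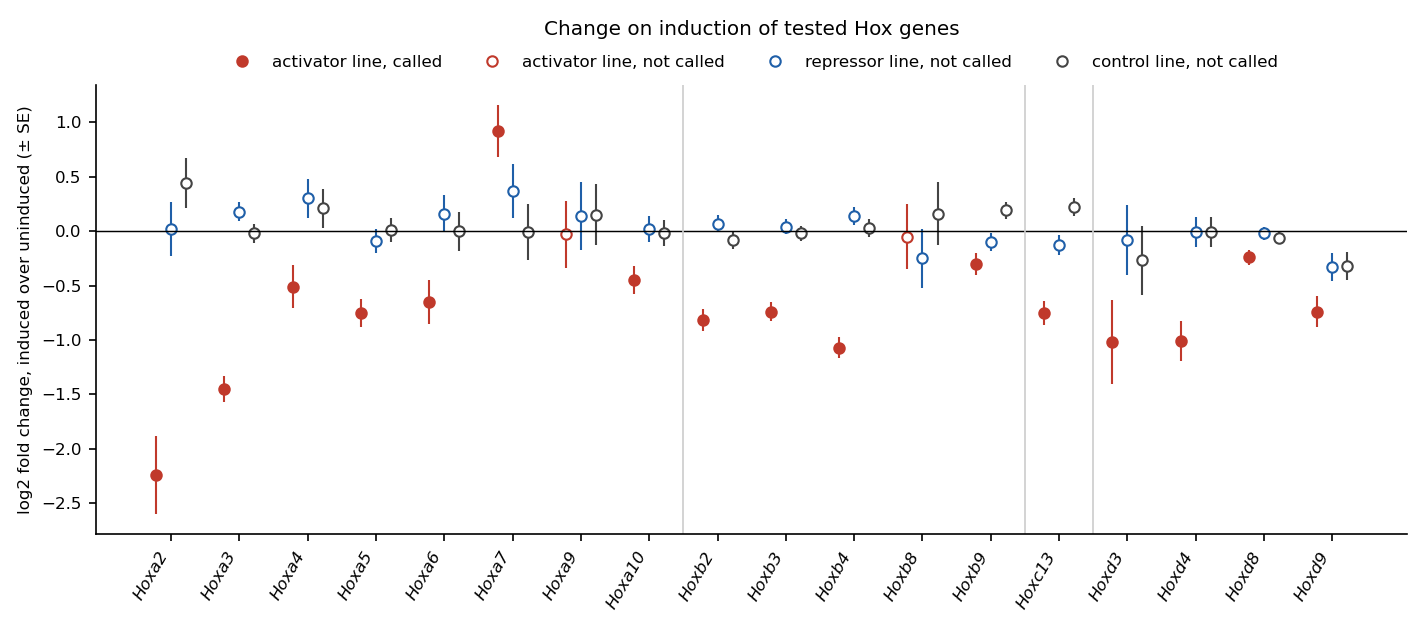
Log2 fold change on induction (± SE) of tested Hox genes in the activator, repressor and control lines, with filled points for called and open points for uncalled genes, and grey lines between the clusters HoxA, HoxB, HoxC and HoxD. Activator values run from -2.24 to 0.92; all values of the repressor line lie between -0.33 and 0.37 and all of the control line between -0.32 and 0.44.

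The activator response was then tested against the control response in the same fit. The comparison shares its activator libraries with the one above, and since the activator line was induced for 6 h and the control line for 24 h, effector and time cannot be told apart. Of the 19 members, 13 had a lower and 1 a higher response in the activator line, against 33% lower and 30.8% higher (63.7% in all) over all genes. The differences ran from -2.68 for Hoxa2 and -1.43 for Hoxa3 to 0.94 for Hoxa7. Hoxc13 differed by -0.97 (SE 0.14, adjusted p = 1.56e-09 by edgeR), more than it fell in the activator line alone. In HoxD the difference was called for Hoxd4 (-1.0, adjusted p = 9.14e-05 by edgeR) and not for Hoxd9 (-0.41, adjusted p = 0.0555), Hoxd8 (-0.17, adjusted p = 0.0869) or Hoxd3 (-0.74, adjusted p = 0.2). The interval for Hoxd9 ran from -0.83 to 0.01 and that for Hoxd3 from -1.85 to 0.37. The higher response of Hoxa7 (adjusted p = 0.0172 by edgeR) was not called without activator uninduced replicate 2 (0.82, adjusted p = 0.0523) or control uninduced replicate 2 (0.77, adjusted p = 0.0874). For the repressor response against the control response no member was called by edgeR (2 at an unadjusted p below 0.05, none by DESeq2), where 2.73% of all genes were (1.54% lower and 1.19% higher). There the repressor line had the higher dose, and effector and dose cannot be told apart.

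Before induction the differences between lines were small. In the uninduced activator line against the uninduced control line, 3 members were lower and none higher by edgeR, against 10.5% and 8.92% of all genes (19.5% in all). Hoxb9 had 9.28, 11.5 and 10.5 CPM in the uninduced activator line, against 14.2, 12.9 and 12.5 CPM in the uninduced control line (log2 fold change -0.35, SE 0.09, adjusted p = 0.00137 by edgeR). Hoxb2 differed by -0.27 (adjusted p = 0.018 by edgeR) and Hoxc13 by -0.25 (adjusted p = 0.0337 by edgeR). The Hoxc13 call was lost with DESeq2 (adjusted p = 0.0793), with total counts (0.055 by edgeR), with no filter on low counts (0.0779 by edgeR) and without each of 5 libraries in turn, activator uninduced replicate 3 (0.0691 by edgeR) among them. None of the 3 was called without activator uninduced replicate 1, and 1 was called without activator uninduced replicate 2 or control uninduced replicates 1 or 2. The uninduced repressor line gave no called difference from the control line in any tested member (0 at an unadjusted p below 0.05, lowest adjusted p 0.537 by edgeR, none by DESeq2), where 1.56% of all genes were called (0.697% lower and 0.863% higher).

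The silent Hox genes, the 20 members below the filter, were at or near 0 with the activator as well. That filter used all 18 libraries, so a silent member that rose clearly would have been tested and left this set. The sum of the 20 therefore cannot show such a rise. No tested member was of that kind, since each had counts in the uninduced activator libraries, Hoxd3 the fewest with 49. The 20 members below the filter summed to 35 counts in the 3 induced activator libraries (0.664 CPM, exact Poisson interval 0.462 to 0.923), against 60 counts in the 3 uninduced ones (0.899 CPM, 0.686 to 1.16). The ratio was 0.738, with an exact 95% interval of 0.472 to 1.14 that covers counting error only. Hoxb5, Hoxb6 and Hoxc9 carried most of that sum, with 24 counts in the induced and 53 in the uninduced activator libraries, while the other 17 members held 11 counts in the induced and 7 in the uninduced ones. Of the 11 members with no count in the uninduced activator libraries, 7 had none after induction, and Hoxb13, Hoxc5, Hoxc12 and Hoxd10 had 1 count each. Across the table, 6719 protein-coding genes were without a count before induction of the activator, of which 23.6% had at least 1 after induction and 4.21% more than 10. A count of 0 over the 3 induced libraries allows a level of up to 0.0569 CPM. The 3 silent members with more than 50 counts over 18 libraries were Hoxb6 with 84, Hoxc9 with 77 and Hoxb5 with 76, and each lay below 1 CPM in every library.

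The clusters also hold noncoding RNAs, read here from 16 named genes, of which 5 were tested. With the activator Hoxb3os, antisense to Hoxb3 and Hoxb2, fell to 2.92, 2.4 and 2.66 CPM in induced libraries, against 5.48, 6.29 and 5.29 CPM in uninduced ones (log2 fold change -1.1, adjusted p = 2.18e-10 by edgeR). It overlaps 52.9% of the exon length of Hoxb3 and 27.3% of that of Hoxb2, so these 3 falls may share reads. Hoxaas3 rose (0.77, adjusted p = 0.0108 by edgeR), with 1.43, 1.13 and 1.43 CPM in induced and 0.652, 0.579 and 1.28 CPM in uninduced libraries, which overlapped. Hoxaas2 had a change of 0.39 (adjusted p = 0.0226 by edgeR). With total counts neither Hoxaas3 (0.55) nor Hoxaas2 (0.16) was called, and with mitochondrial scaling Hoxaas2 was lower (-0.36). Hotairm1, a noncoding RNA of HoxA, had a change of -0.35 (adjusted p = 0.0617 by edgeR) and Hoxd3os1 of -0.09, both uncalled. The clusters held 46 other annotated genes in all, and 11 were tested, those 5 included. Of the 11, 3 rose, 2 fell and 6 were not called, against 38.2% higher and 37.2% lower over all genes. Gm15050 of HoxA rose (0.71, adjusted p = 0.0169 by edgeR), and Gm27861, inside the Hotairm1 gene, fell (-1.0, adjusted p = 0.0037). In the repressor and control lines none of the 5 was called, where 9.81% and 0.463% of all genes were. Hoxd3 and Hoxd4 share exons on 1 strand (62.3% and 52.3% of their exon length lies under other genes), so their split of reads is uncertain.

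Protein-coding genes beside the clusters were also read. The nearest tested protein-coding genes, a pair on each side of each cluster, made 16 neighbours, of which 9 rose, 4 fell and 3 were not called with the activator, with a median log2 fold change of 0.22, where 38.2% of all genes were higher and 37.2% lower. Next to HoxD, Lnpk averaged 108 ± 5.06 CPM in induced and 70.9 ± 2.25 CPM in uninduced libraries (0.61, adjusted p = 1.32e-26 by edgeR). On the other side Mtx2 averaged 65.8 ± 0.964 CPM in induced and 55.7 ± 1.01 CPM in uninduced libraries (0.24). Smug1, beyond the HoxC end, fell by 0.96 and Snx11, beyond HoxB, by 0.92. These signs depend on the scaling: over the 18 tested genes of a longer flanking list, 11 were higher and 4 lower under TMM, 7 and 7 with total counts, and 0 and 17 with mitochondrial scaling, where Lnpk was at -0.13.

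The TALE homeodomain proteins of the Meis, Pbx and Pknox families bind DNA beside Hox proteins as cofactors. With the activator 7 of their 9 genes fell, none rose and 2 were not called (median log2 fold change -0.39). Over all genes 37.2% were lower and 38.2% higher. Meis2 had 40.4, 42.8 and 49.1 CPM in the induced activator libraries, against 109, 110 and 111 CPM in the uninduced ones (-1.31, SE 0.04, adjusted p = 9.21e-43 by edgeR). Meis1 averaged 6.47 ± 1.76 CPM in induced and 14.9 ± 1.41 CPM in uninduced libraries (-1.18), and Pbx2 averaged 16.6 ± 1.13 CPM in induced and 35.5 ± 2.86 CPM in uninduced libraries (-1.09). Pbx3 fell by 0.86. None of the 9 rose under any of the 5 scalings, and between 6 and 8 were lower. In the control line none was called, where 0.463% of all genes were. In the repressor line 1 was lower, Meis2 at -0.16, where 4.59% of all genes were lower and 5.21% higher.

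**Figure D5:**
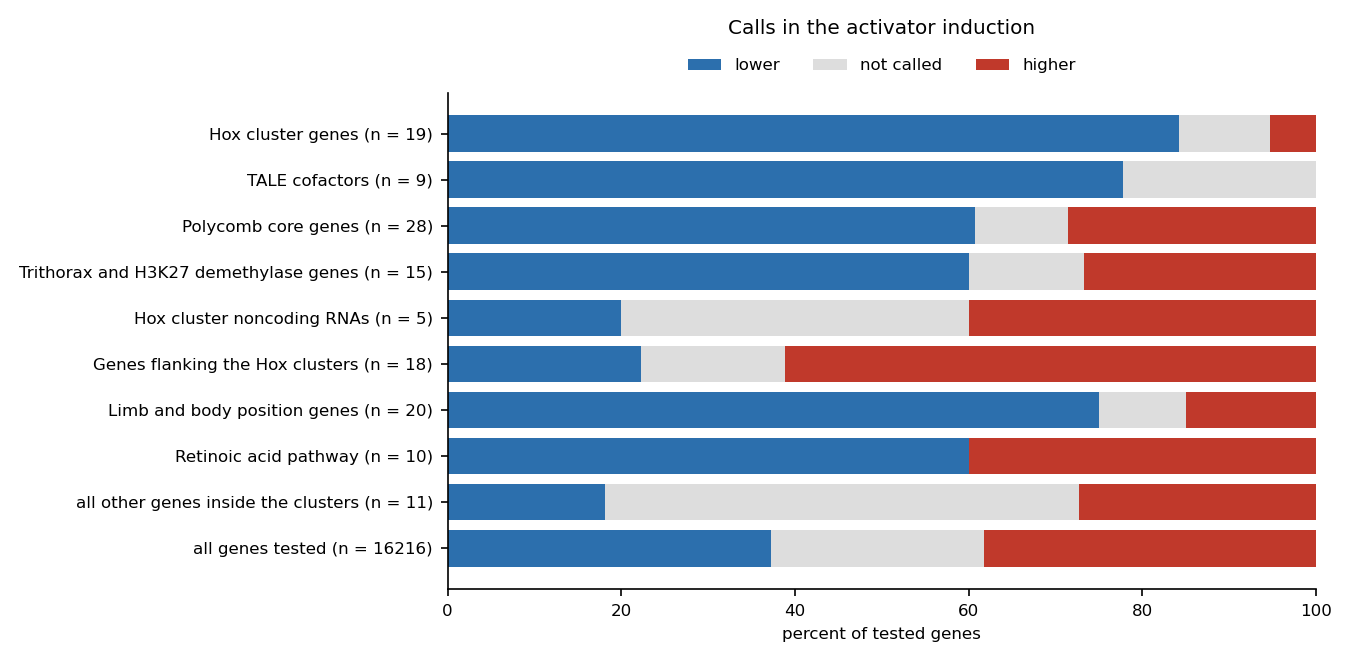
Percent of the tested genes of each list called lower, not called or called higher in the activator line, induced over uninduced (TMM, adjusted p below 0.05), with all 16216 tested genes in the bottom bar. Of the Hox cluster genes, 84.2% were lower, against 37.2% of all genes; the genes flanking the clusters have a larger higher share under TMM, which is 7 higher and 7 lower of 18 with total counts.

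Chromatin regulators that keep Hox genes silent or active were called in both directions, as were 75.3% of all genes (37.2% lower and 38.2% higher). Of 28 Polycomb genes 17 fell, 8 rose and 3 were not called (median -0.39, against 0.004 over all genes). Cbx7, a chromodomain subunit of Polycomb repressive complex 1, averaged 1.33 ± 0.402 CPM in induced and 3.84 ± 0.047 CPM in uninduced libraries (-1.49), and Cbx2 fell by 1.33. Ezh1, the H3K27 methyltransferase of non-dividing cells, fell by 1.33 as well, and Jarid2 by 1.06. The 8 rises ran from 0.09 for Ezh2 to 0.55 for Rbbp4. Ezh2 averaged 108 ± 0.517 CPM in induced and 101 ± 1.61 CPM in uninduced libraries. Ezh1 was far lower, at 5.13 ± 0.223 CPM in induced and 12.8 ± 0.498 CPM in uninduced libraries. Of 15 Trithorax and H3K27 demethylase genes 9 fell, 4 rose and 2 were not called. Kmt2d, an H3K4 methyltransferase of enhancers, averaged 268 ± 9.43 CPM in induced and 565 ± 8.57 CPM in uninduced libraries (-1.08), and Kdm6b, which removes H3K27 methylation, fell by 1.26. The rises were scale-dependent: with mitochondrial scaling none of either list was higher, and with total counts 2 Polycomb genes and no Trithorax gene were.

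Genes of limb and body position other than Hox genes fell in 15 of 20 tested cases, with 3 higher and 2 not called (median -0.75), against 37.2% lower and 38.2% higher over all genes. En1, of the ventral limb skin and the midbrain border, averaged 0.496 ± 0.0368 CPM in induced and 1.66 ± 0.165 CPM in uninduced libraries (-1.75), and Emx2, of the shoulder girdle and kidney, averaged 3.61 ± 0.6 CPM in induced and 11 ± 0.179 CPM in uninduced libraries (-1.6). Foxf1 fell by 1.24 and Tbx18 by 1.01. With mitochondrial scaling 18 were lower and none higher. The limb identity genes Tbx5, Tbx4 and Pitx1 held 1, 8 and 2 counts over the 18 libraries. The ParaHox and Cdx genes, of which the Cdx genes act upstream of posterior Hox genes, held at most 8 counts each and none was tested.

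Retinoic acid opens Hox clusters from the head end in the embryo, and 10 genes of its pathway were tested. Of these 6 fell and 4 rose, against 37.2% lower and 38.2% higher over all genes. The receptor genes Rara (-1.45) and Rarg (-0.86) fell. Cyp26b1, which degrades retinoic acid, rose to 3.25, 2.87 and 2.91 CPM in the induced activator libraries, against 0.345, 0.579 and 0.486 CPM in the uninduced ones (2.68, adjusted p = 2.75e-15 by edgeR). Crabp2, which carries retinoic acid to its receptors, rose by 2.53. Both kept their rise under all 5 scalings.

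The cell type markers were checked for the same libraries. Fibroblast markers summed to between 24659 and 25138 CPM in the induced activator libraries and between 19524 and 23239 CPM in the other 15 for the 10 genes, of which Thy1 had 1 count in all. Of the 9 tested, 6 rose and 3 fell with the activator, against 38.2% higher and 37.2% lower over all genes. The rises ran from 0.05 for Col1a2 to 0.46 for Sparc. The falls were larger, at -1.14 for Pdgfra, -1.14 for Pdgfrb and -1.05 for Twist1. The sum says little of these 3, since Col1a1 alone averaged 9372 CPM in the induced activator libraries. Neural markers summed to between 21.1 and 22 CPM in the induced activator libraries and between 31.8 and 53.4 CPM in the other 15, with 5 of 6 below 1 CPM in every library. Cartilage and bone markers summed to between 32.4 and 38.4 CPM, against 90.5 to 115 CPM in the other 15, and Runx2 carried most of that. Of the 3 tested with the activator, Runx2 (-1.74) and Sox9 (-1.47) fell, and Col2a1 rose from 0.216 to 0.727 CPM (1.69). Of 5 endothelial markers Pecam1 alone reached 1 CPM, and their sum was between 18.5 and 23.4 CPM in the induced activator libraries and between 0.182 and 0.76 CPM in the other 15. The sums of the blood (at most 8.85 CPM), muscle (at most 5.27), epithelial (at most 4.46) and pluripotency markers (at most 1.53) were low in all libraries. Of 3 blood markers tested with the activator, Itgam rose from 0 to 0.824 ± 0.0956 CPM (7.05) and 2 were not called. Of 2 muscle markers tested, Acta1 rose from 1.48 to 3.26 CPM (1.17) and 1 was not called, where 38.2% of all genes were higher. The part of these shifts in the Hox results was not tested.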

How the data were processed

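The authors deposited 1 table of raw read counts per gene for 18 libraries of total RNA, and mm10 is the build per the submitters' processing notes. Not given in the sources used here are the aligner, the counter, its annotation and its strand setting. Libraries were stranded, per the labels' protocols. Of 47937 IDs, 47310 were in GENCODE M21, whose merged exon lengths gave TPM, and the rest held 0.0423% of counts. Groups came from the sample titles.

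One edgeR 4.0.16 quasi-likelihood model (R 4.3.3, robust, TMM, low counts removed with filterByExpr) covered all 18 libraries with 1 coefficient per group. It tested 16216 genes in 7 comparisons with Benjamini-Hochberg adjustment at 0.05, and had 12 residual degrees of freedom. SE is the absolute log2 fold change over the square root of F. Intervals of the log2 fold change used a t quantile at 12 degrees of freedom. They could cover 0 where the unadjusted p of edgeR's test was below 0.05. Library totals ran from 14928765 to 25262912, so genes of few counts have wide intervals. Exact Poisson intervals and the floor of 3 counts cover counting error only.

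The naming rule was, per comparison, up to 8 called members of largest change in each direction and the 3 most abundant of each cluster. For each other list it was up to 4 called genes of largest change. Further Hox genes, neighbours, noncoding RNAs, Polycomb genes, cell type markers and genes near 0 counts were named after their values were seen. The members and lists were chosen with earlier results of these data known. One member is in the counts and sums but is not reported here singly. The fit was tested on simulated data. Alternatives were RLE, upper-quartile, total-count and mitochondrial scaling, DESeq2 1.42.0, limma-voom (limma 3.58.1), other filters, a replicate block and leaving out each library. For TPM the alternative was the length of the longest annotated transcript. The scaling of the list counts was added after the data were seen.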

Additional observations from a re-analysis of the deposited data

Results flagged for a closer look

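The response to induction differed between the activator and the control line for 13 of the Hox genes given here, by the interaction term of the edgeR fit (log2 difference, activator response minus control response). It was lower in the activator line for 12 and higher for 1. In HoxA the differences were -2.68 for Hoxa2, -1.43 for Hoxa3, -0.72 for Hoxa4, -0.76 for Hoxa5, -0.65 for Hoxa6, 0.94 for Hoxa7 and -0.43 for Hoxa10. In HoxB they were -0.74 for Hoxb2, -0.71 for Hoxb3, -1.1 for Hoxb4 and -0.49 for Hoxb9. Hoxc13 had -0.97 and Hoxd4 -1.0. The largest adjusted p among them was 0.0313, for Hoxa6, and the smallest 6.87e-14, for Hoxa3. Hoxa10 was not called with RLE (adjusted p = 0.0529 by edgeR) or upper-quartile factors (0.0997), DESeq2 (0.0983) or without each of 4 libraries in turn (0.0579 to 0.146). Hoxa6 was not called with upper-quartile factors (0.0701 by edgeR), DESeq2 (0.102) or without each of 5 libraries in turn (0.073 to 0.158). Hoxa4 was not called with DESeq2 (0.0655) or without activator uninduced replicate 1 (0.0815 by edgeR), and Hoxa7 lost its call with total counts, with mitochondrial scaling and without activator or control uninduced replicate 2. The activator line was induced for 6 h and the control line for 24 h, so effector and time cannot be told apart.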

How the results depend on the processing

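Over 53 member values and 1237 alternatives, 1157 kept direction and side of the threshold, 44 lost and 15 gained a call, and 13 changed sign. The other 8 were TPM levels of the uninduced lines, which moved when the longest annotated transcript gave the length. With that length Hoxd8 was at 23.8 TPM, Hoxb9 at 13.7 TPM, Hoxb4 at 13.3 TPM and Hoxc13 at 11.3 TPM. The cause of each change was not tested. Members lower with the activator numbered 13 (upper-quartile) to 18 (mitochondrial scaling), 15 with DESeq2, and 13 to 16 without 1 library; the member higher, Hoxa7, was 0 under mitochondrial scaling. For the activator response against the control response, 10 were lower with DESeq2 and 18 with mitochondrial scaling, and 11 to 14 without 1 library; higher members were 0 with total counts, 0 with mitochondrial scaling, and 0 to 1 without 1 library. The uninduced activator line had 5 lower members with mitochondrial scaling and 0 to 4 without 1 library. The repressor response against the control response had 0 to 1 lower without 1 library, the 1 without repressor induced replicate 2. With the activator, Hoxa9 was 0.02 with RLE, 0.08 with upper-quartile and 0.01 with DESeq2, and -0.57 to 0.2 without 1 library. Hoxb8 was 0.06 with upper-quartile and 0.01 with DESeq2, and -0.2 to 0.07 without 1 library. Against the control response Hoxa9 ran from -0.72 to 0.16 without 1 library. Under mitochondrial scaling both were lower with the activator (-0.77 and -0.78). Same-numbered libraries did not deviate together (correlations -0.0313 to 0.0439 over 45 pairs, 0.1 needed). The replicate block shared by all lines gave 16 lower and 1 higher member with the activator, and 13 and 1 against the control response. The replicate block within each line gave 16 and 1, and 14 and 1. Depth limits members with few counts: Hoxa2 rested on 15 counts in the induced activator libraries.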
